A study of Mus musculus with 20 samples.

Results

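Mouse fast muscle that received both of a study's treatments, a block of the deacetylases HDAC4 and HDAC5 and the drug Scriptaid, was compared with muscle that received neither. The comparison uses 10 of the 20 arrays of the series, chosen by their group labels, and 14650 genes measured away from the edge of the array. The muscle is the extensor digitorum longus (EDL) of male C57Bl6 mice that were 8 weeks old when a recombinant adeno-associated virus of serotype 6 (rAAV6) was injected into the hindlimb. The legs abbreviated HS received vectors for the mutants D832N HDAC4 and D861N HDAC5, which act as dominant negatives (dnHDAC4/5), at 2.5e+10 vector genomes each, and the animal was given Scriptaid intraperitoneally 4 weeks later. The legs abbreviated EV received an empty rAAV6 vector, and their animals were given vehicle, 5% DMSO in phosphate-buffered saline, at the same time.

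The 5 HS legs and the 5 EV legs come from 10 different animals, and a number after the abbreviation, as in HS 2, is the replicate. The other leg of each animal supplied the 2 single-treatment groups, dnHDAC4/5 with vehicle (HV) and empty vector with Scriptaid (ES), of 5 arrays each. Every animal therefore carried the mutant vectors in 1 leg, and any effect of them outside the injected leg was present in the EV animals too. The dnHDAC4/5 vectors were always in the right leg and the empty vector always in the left, so vector and side cannot be told apart. The labels do not give the promoter in the vectors, the dose of Scriptaid or the time from that injection to collection of the muscle. The titles of the ES samples say vehicle, whereas their treatment entries, descriptions and animal numbers say Scriptaid, and these entries were followed in place of the titles.

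Class IIa histone deacetylases, among them HDAC4, HDAC5, HDAC7 and HDAC9, have little catalytic activity of their own. They repress muscle genes by binding MEF2 transcription factors and bringing in corepressor complexes, and contraction drives them out of the nucleus. Scriptaid is a hydroxamate that inhibits histone deacetylases, and the study asked whether blocking the class IIa enzymes or giving the drug resembles the response of muscle to exercise. The HS legs against the EV legs give the joint effect of both interventions, including any departure from additivity.

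Each array carries 45018 spots, of which 38182 non-control spots lay in the inner zone used here. Values are log2 intensities after subtraction of the array's 75th percentile, so 0 is the level of a fairly bright spot. That percentile was an intensity of 248.4 to 542.7 on the HS arrays and 379.0 to 544.2 on the EV arrays. Near the edge, 2.25% to 3.60% of spots on the HS arrays read more than log2 3 below the median array, against 0% to 0.385% on the EV arrays, which is why the edge was left out. In the inner zone these shares were 0.0576% to 0.257% on HS arrays and 0.0157% to 0.932% on EV arrays, with EV 5 the highest. The HS arrays had 376 to 855 inner spots marked as non-uniform or outlying and left out, and the EV arrays 267 to 553. Inner spots marked saturated numbered 110 to 237 on HS arrays and 154 to 201 on EV arrays. The array number limits the precision of every value. All 10 fast-fibre genes tested, such as the myosin heavy chains Myh1 and Myh4, were above background on every array where they were measured, and so were 8 of 10 slow-fibre genes (all but Myoz2 and Pln).

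Among the transcripts that rose with both treatments were the glucocorticoid receptor co-chaperone Fkbp5, the metallothionein Mt1, the muscle ubiquitin ligase subunit Fbxo32 and the lipid droplet protein Plin4. limma called 17 of 14650 genes at an adjusted p under 0.05 (0.116%), of which 13 rose (0.0887%) and 4 fell (0.0273%). The largest rise was in Chrna9, a nicotinic acetylcholine receptor subunit that was not above background on any EV array, and the largest fall was in the unnamed clone A330043J11Rik. All 17 had HS and EV arrays that did not overlap, from which it follows that each moved the same way on every slide measured. Across all genes tested, 359 (2.45%) did not overlap between the groups, 245 of them higher in HS (1.67%) and 114 lower in HS (0.778%). At an unadjusted p under 0.05 there were 1848 genes (12.6%), 1182 of them higher in HS (8.07%) and 666 lower in HS (4.55%). The median difference over all genes was 0.05 on the log2 scale.

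The replicate number is the slide, and each slide held 1 array of every group at a fixed place, so place on the slide and group cannot be told apart. With the slide as a block, limma called 195 genes (1.33%), 126 higher in HS (0.86%) and 69 lower in HS (0.471%), and these included all 17. The count of 17 also depended on single arrays. Without HS 1 or without HS 4 limma called 0 genes, with smallest adjusted p = 0.0676 and 0.0599, although 1591 and 1669 genes had an unadjusted p under 0.05. Without HS 2 it called 156 genes, 119 higher and 37 lower in HS, and these included all 17. Without HS 3 it called 37, and without HS 5 it called 7. Among the EV arrays, 14 genes were called without EV 1, 1 without EV 2, 8 without EV 3, 5 without EV 4 and 2 without EV 5. All 17 genes kept their direction in each of these 10 fits, but this was fixed in advance, since their HS and EV arrays did not overlap. With the edge of the array included the count was 376. With a narrower inner zone, in which 10 of the 17 were tested, it was 4, all higher in HS. The probes used for 8 of the 17, namely 5 rises and 3 falls, lay outside that narrower zone. Whether their place on the array matters was not tested. With the animal as a random block, which allows for the other leg of each animal, 10 of the 17 were called. Igfn1 (adjusted p = 0.0614 in limma), Slc16a12 (0.056) and Pim3, Plin4, Rell1, A330043J11Rik and AK162362 (0.0505 each) were not. The calls of HS minus EV below are those of the fit with all 20 arrays, and the omission of single arrays was not run for the other contrasts.

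**Figure D1:**
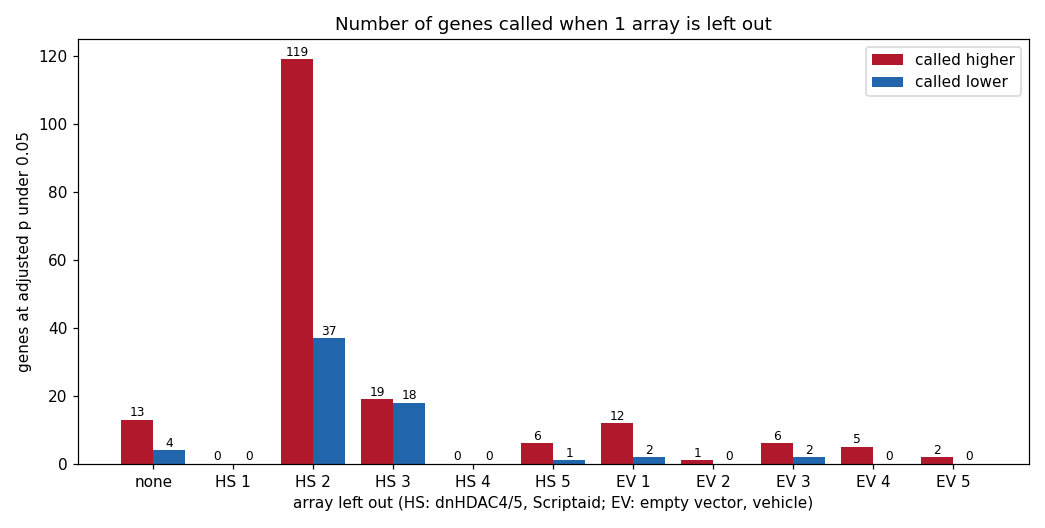
Number of genes (vertical axis) at an adjusted p under 0.05 in limma when no array or 1 array is left out (horizontal axis), with red bars for genes higher in HS and blue bars for genes lower in HS. The counts run from 0 without HS 1 or HS 4 to 119 higher and 37 lower without HS 2.

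Chrna9 codes for an α subunit of nicotinic acetylcholine receptors, known chiefly from sensory hair cells of the ear. It read 0.30, -0.94, -0.37, 2.24 and -0.33 in HS legs 1 to 5, against -6.38, -6.82, -4.08, -5.77 and -6.11 in EV legs 1 to 5. Every HS array was above background and no EV array was, so the groups were far apart and the fold is a bound, at least 21.7-fold (measured log2 difference 6.01 ± 0.95 SE, adjusted p = 0.0231 in limma). A different probe of the gene gave a difference of 5.04. The differences against EV in the single-treatment groups were 5.12 in HV, where 4 of 5 arrays were above background, and -0.06 in ES, where none was.

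Igfn1 encodes an immunoglobulin and fibronectin domain protein of the muscle Z-disc. It read 0.23, 0.36, 0.08, 2.18 and 1.64 in HS legs, against -2.33, -1.88, -1.62, -1.68 and -1.89 in EV legs. HS 4 and HS 5 were the highest, and the lowest HS array stood above the highest EV array by more than the whole EV range. The rise was 2.78 ± 0.53, or 6.85-fold (adjusted p = 0.048 in limma), beside differences of 2.90 in HV and -0.20 in ES against the same EV arrays.

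Fam107a, an actin-binding protein that is induced by stress and glucocorticoids in the mouse brain, rose 4.00-fold. It read -1.17, -1.05, -1.11, -1.57 and -1.0 in HS legs, against -2.09, -3.38, -3.14, -2.88 and -4.41 in EV legs. The HS arrays lay close together, whereas EV 5 was low and not above background. The difference was 2.00 ± 0.31 (adjusted p = 0.0231 in limma), and it was 0.93 in HV and 1.76 in ES.

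Mt1 encodes metallothionein 1, a small protein that binds zinc and copper and is induced by metals and by glucocorticoids. It read 5.72, 4.55, 4.46, 5.25 and 4.58 in HS legs, against 3.14, 3.11, 3.51, 2.17 and 3.02 in EV legs. The groups did not overlap, with HS 1 highest and EV 4 lowest. The rise was 1.92 ± 0.33, or 3.79-fold (adjusted p = 0.0377 in limma), and a different probe gave 1.48. Against the same EV arrays the difference was 0.78 in HV and 1.09 in ES. The neighbouring metallothionein gene Mt2 read 6.84, 5.53, 4.81 and 5.32 on the 4 HS arrays measured, against 3.16, 3.79, 3.08, 1.42 and 1.90 in EV legs. Its difference of 2.95 ± 0.66 was larger than that of Mt1 and more variable, and it did not pass (adjusted p = 0.0706 in limma).

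Fkbp5 encodes a co-chaperone of the glucocorticoid receptor and is itself a widely used readout of that receptor. It read 0.16, -0.57, -0.07, -0.06 and -0.54 in HS legs, against -1.09, -0.99, -1.18, -1.63 and -1.85 in EV legs. The lowest HS arrays, HS 2 and HS 5, stood above the highest EV array. The rise was 1.13 ± 0.20, or 2.19-fold (adjusted p = 0.0377 in limma), and other probes of the gene gave 0.94 and 1.07. The difference was -0.01 in HV and 1.04 in ES.

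Arrdc2, an α-arrestin, had the smallest p of all genes. It read 2.48, 2.42, 2.17, 2.65 and 3.14 in HS legs, against 0.82, 1.42, 1.40, 0.56 and 1.32 in EV legs. HS 5 was the highest and EV 4 the lowest, and the groups did not overlap. The rise was 1.47 ± 0.22, or 2.77-fold (adjusted p = 0.0231 in limma), beside 0.27 in HV and 1.11 in ES.

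The promoters of the metallothionein genes and of Fam107a are printed because the 13 rises hold known glucocorticoid-inducible genes, and because 2 of the 11 rises with a RefSeq promoter (Mt1 and Fam107a) hold the glucocorticoid response element palindrome, GNACA and TGTNC separated by 3 bases. In the windows from 250 bases before to 50 after the start, 43 of 9859 genes tested (0.436%) held it, as did 0 of 2 falls. Among genes called with the slide as a block, 3 of 96 rises (3.1%) and 1 of 34 falls (2.9%) held it. Among all 32851 promoter windows in the table the share was 0.475%. Capitals mark that palindrome and the metal response element core TGCACNC or TGCGCNC, on either strand, in sequences from RefSeq on GRCm38.p6. Mt1 lies on the plus strand at chr8:94178839-94179138, Mt2 on the plus strand at chr8:94172368-94172667, and the window of Fam107a shown, one of several starts, on the minus strand at chr14:8309730-8310029.
Mt1: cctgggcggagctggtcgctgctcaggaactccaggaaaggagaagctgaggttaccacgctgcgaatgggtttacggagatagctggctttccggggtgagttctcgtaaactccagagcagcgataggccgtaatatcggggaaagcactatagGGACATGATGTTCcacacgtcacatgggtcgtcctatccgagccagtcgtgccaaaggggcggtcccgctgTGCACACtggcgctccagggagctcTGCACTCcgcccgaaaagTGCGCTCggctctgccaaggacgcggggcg
Mt2: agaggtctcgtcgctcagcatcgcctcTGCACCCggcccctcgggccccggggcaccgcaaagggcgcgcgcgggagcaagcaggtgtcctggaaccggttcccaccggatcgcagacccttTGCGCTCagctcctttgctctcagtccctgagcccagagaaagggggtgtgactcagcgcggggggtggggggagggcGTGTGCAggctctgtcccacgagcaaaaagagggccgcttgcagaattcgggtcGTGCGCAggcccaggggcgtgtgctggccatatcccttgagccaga
Fam107a: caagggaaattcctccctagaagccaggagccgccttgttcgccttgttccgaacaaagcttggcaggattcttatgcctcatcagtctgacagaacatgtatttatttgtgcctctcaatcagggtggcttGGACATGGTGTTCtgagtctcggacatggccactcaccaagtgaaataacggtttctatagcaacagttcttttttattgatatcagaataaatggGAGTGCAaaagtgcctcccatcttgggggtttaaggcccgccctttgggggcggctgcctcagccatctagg
The window of Mt1 holds 1 palindrome and 3 metal cores, that of Mt2 holds 0 and 4, and that of Fam107a shown holds 1 and 1. Of the other Fam107a windows, the one at chr14:8317558-8317857 holds 0 and 0. The remaining one overlaps the window shown and also holds 1 and 1. The metal core is common: 39.9% of genes tested hold it, against 3 of 11 rises (Mt1, Fam107a and Pim3, 27.3%). The MEF2 consensus, searched on both strands and named only, was in 0 of 11 rises and 0 of 2 falls with a promoter in the table, against 2.43% of genes tested. Both the palindrome and the metal core were chosen after the called genes were seen. A match is a description of letters, and no match says only that they are absent from this window.

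**Figure D2:**
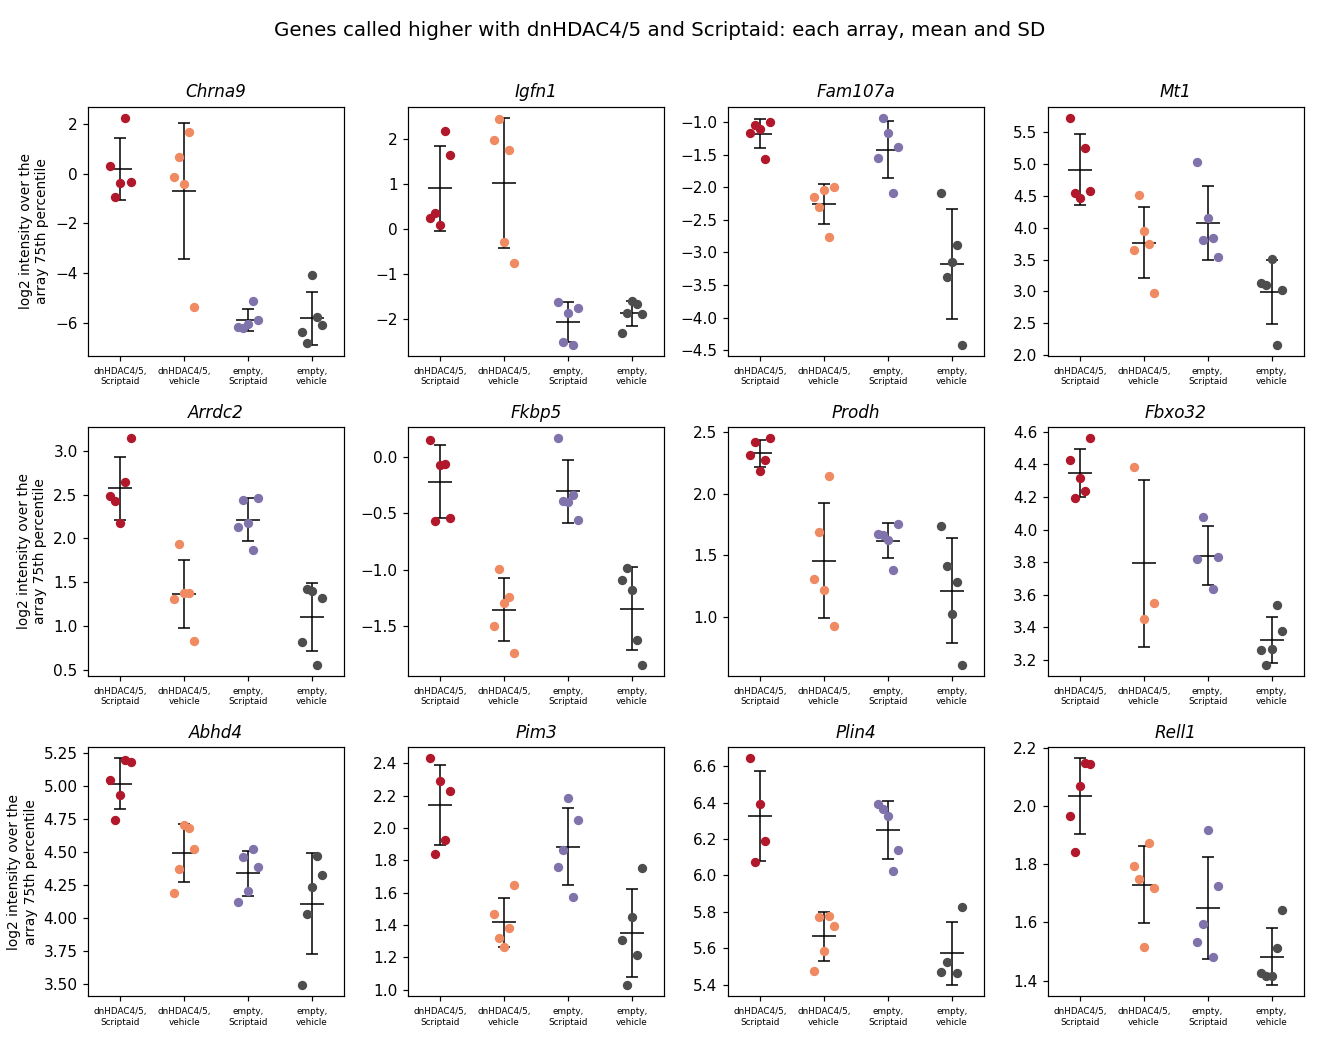
Each array's log2 intensity over the array's 75th percentile (vertical axes) for the 12 named genes that rose, in the groups dnHDAC4/5 with Scriptaid, dnHDAC4/5 with vehicle, empty vector with Scriptaid and empty vector with vehicle (horizontal axes); bars are the mean and SD of up to 5 arrays. In each panel the dnHDAC4/5, Scriptaid arrays lie above the empty vector, vehicle arrays, and Chrna9 and Igfn1 are low in both empty-vector groups.

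Fbxo32 encodes atrogin-1, the F-box subunit of a ubiquitin ligase that marks muscle proteins for breakdown. It read 4.43, 4.19, 4.32, 4.23 and 4.56 in HS legs, against 3.26, 3.17, 3.27, 3.54 and 3.38 in EV legs. Both groups were tight and clearly apart. The rise was 1.02 ± 0.16, or 2.03-fold (adjusted p = 0.0364 in limma), with 1.35 at a different probe, 0.47 in HV (3 arrays measured) and 0.52 in ES (4 arrays measured).

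Prodh, the mitochondrial enzyme that opens proline breakdown, read 2.32, 2.43, 2.19, 2.28 and 2.45 in HS legs, against 1.74, 1.41, 1.02, 1.29 and 0.61 in EV legs. The HS arrays were nearly level and EV 5 was the lowest. The rise was 1.12 ± 0.20, or 2.17-fold (adjusted p = 0.048 in limma), beside 0.24 in HV and 0.41 in ES.

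Abhd4, a lysophospholipase of the N-acylethanolamine pathway, read 5.05, 4.74, 4.93, 5.20 and 5.18 in HS legs, against 3.49, 4.03, 4.24, 4.47 and 4.32 in EV legs. EV 1 was the lowest. The rise was 0.91 ± 0.16, or 1.88-fold (adjusted p = 0.0447 in limma), beside 0.38 in HV and 0.23 in ES. Plin4, a perilipin that coats lipid droplets, was measured on 4 arrays of each group and read 6.64, 6.08, 6.39 and 6.19 in HS legs, against 5.47, 5.52, 5.46 and 5.83 in EV legs. The EV arrays were level apart from EV 5, which was closest to HS. The rise was 0.75 ± 0.14, or 1.69-fold (adjusted p = 0.048 in limma), beside 0.09 in HV and 0.68 in ES.

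Pim3, a serine/threonine kinase of the PIM family, read 2.43, 1.84, 2.29, 1.93 and 2.23 in HS legs, against 1.31, 1.03, 1.45, 1.21 and 1.75 in EV legs. HS 2, the lowest, lay just above EV 5, the highest of its group. The rise was 0.79 ± 0.15, or 1.73-fold (adjusted p = 0.048 in limma), beside 0.07 in HV and 0.53 in ES. Rell1, a relative of the tumour necrosis factor receptor family member RELT, read 1.96, 1.84, 2.07, 2.15 and 2.14 in HS legs, against 1.42, 1.42, 1.42, 1.51 and 1.64 in EV legs. It had the smallest rise among the named genes, 0.55 ± 0.10 or 1.47-fold (adjusted p = 0.048 in limma), beside 0.25 in HV and 0.17 in ES. The clone AK162362, named after its values were seen, differed by 0.53 ± 0.10 (adjusted p = 0.048 in limma), but by -0.07 with another background correction.

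The 3 comparisons with EV share the EV arrays, so their values are set side by side and not correlated. Among the 13 rises, 11 were above 0 in HV minus EV and 11 in ES minus EV, and the HS mean was above the HV mean for 12. The exception was Igfn1, whose mean was higher in HV. Of these 13, Chrna9 and Igfn1 were near 0 in ES, while Fkbp5, Arrdc2, Pim3 and Plin4 had a difference of 0.27 or less in HV and of 0.53 or more in ES. limma called 0 genes for HV minus EV (710 at an unadjusted p under 0.05, smallest adjusted p = 0.169) and 0 for ES minus EV (596, smallest adjusted p = 0.23). For Arrdc2 the adjusted p was 1.00 in HV minus EV and 0.23 in ES minus EV.

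**Figure D3:**
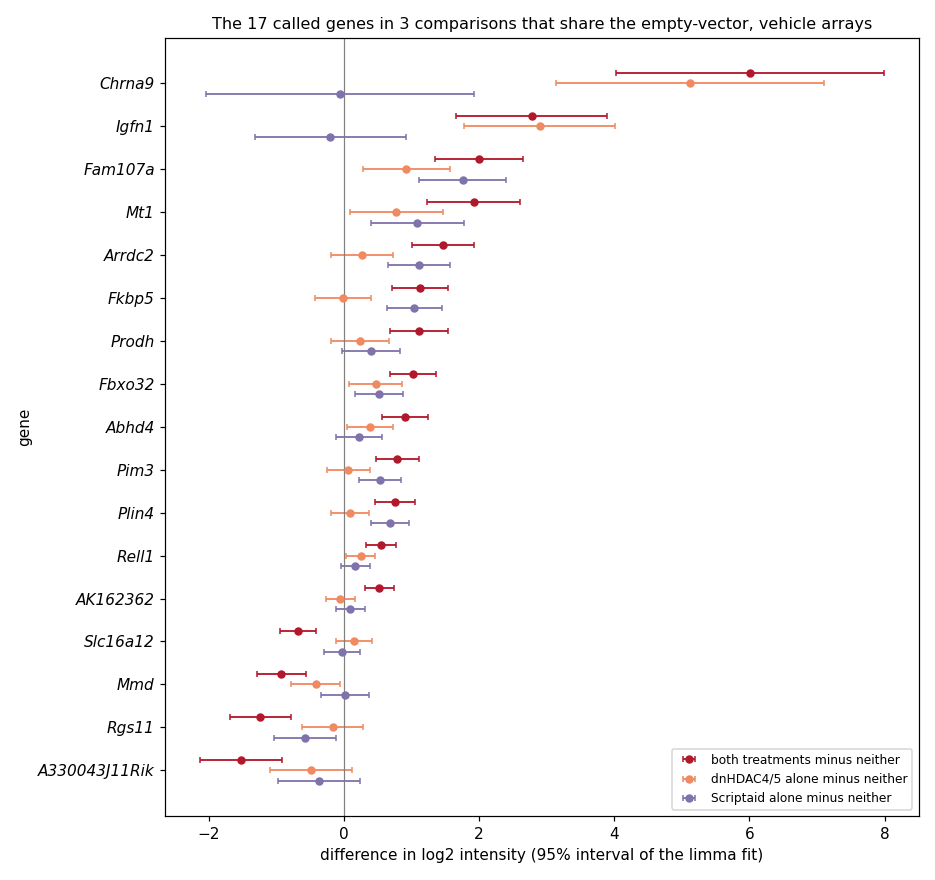
Difference in log2 intensity with its 95% interval from limma (horizontal axis) for the 17 called genes (vertical axis): both treatments minus neither in red, dnHDAC4/5 alone minus neither in orange and Scriptaid alone minus neither in purple. Chrna9 and Igfn1 are high in the red and orange points and near 0 in the purple ones, and for Fkbp5 and Plin4 the red and purple points lie together.

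Both treatments together were also tested against each single treatment, and the test of non-additivity is the interaction. These tests came from the same fit of group means, which had no term for the animal. HS minus ES and the interaction therefore treated legs of the same animal as independent. The spread used for HS minus EV and HS minus HV also came from all 20 arrays counted as independent. The estimated correlation between legs of an animal was 0.346. Against dnHDAC4/5 alone (HS minus HV) limma called 1 gene (0.00683%), Slc16a12, lower in HS by 0.84 on the log2 scale (adjusted p = 0.0416). Against Scriptaid alone (HS minus ES), legs of the same animals, it called 3 genes (0.0205%), all higher in HS (adjusted p = 0.0461 each): Chrna9 by 6.07, the secreted phospholipase A2 Pla2g5 by 4.17 and the carboxylesterase Ces2c by 3.08. Pla2g5 read 2.01, 2.06, 0.54, 3.92 and 2.49 in HS legs, against 0.39, 0.27, -2.20, -1.30 and -1.70 in EV legs, a difference of 3.11 ± 0.69 that did not pass against EV (adjusted p = 0.068 in limma). Ces2c, whose probes may read other members of the Ces2 family, differed from EV by 2.14 ± 0.50 and did not pass either (adjusted p = 0.0777 in limma). The interaction gave 0 called genes in limma and 316 at an unadjusted p under 0.05. For Slc16a12 it was -0.81 with a 95% half-width of 0.377, and the adjusted p was 1.00 in limma.

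Of the 4 falls, 3 were in genes with a name, Slc16a12, Mmd and Rgs11. The probes used for 3 of the 4 falls lay outside the narrower inner zone, and with that zone 0 genes were called lower. Slc16a12, a transporter that carries creatine, read -3.72, -3.80, -3.83, -3.81 and -4.0 in HS legs, against -3.34, -3.22, -3.25, -2.75 and -3.18 in EV legs. The HS arrays were nearly level, and EV 4 stood above the other EV arrays. The difference was -0.68 ± 0.13 (adjusted p = 0.048 in limma), beside 0.16 in HV and -0.03 in ES.

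Mmd, a membrane protein of the progestin and adipoQ receptor family, read 0.78, 0.66, 0.67, 0.41 and 1.04 in HS legs, against 1.42, 1.5, 1.5, 2.10 and 1.67 in EV legs. HS 4 was the lowest and EV 4 the highest. The difference was -0.92 ± 0.17 (adjusted p = 0.048 in limma), with -0.52 at a different probe, -0.42 in HV and 0.02 in ES.

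Rgs11, a regulator of G-protein signalling known from the retina, read -5.52, -4.29, -4.67, -4.64 and -5.01 in HS legs, against -2.95, -3.69, -3.70, -3.91 and -3.71 in EV legs. It was not above background on any HS array and was above it on 2 of 5 EV arrays, so the measured difference of -1.24 ± 0.22 (adjusted p = 0.0377 in limma) is of dim signals, and no fold is given. A330043J11Rik, named only because the falls were few, read -3.12, -4.24, -2.53, -3.12 and -3.63 in HS legs, against -1.99, -2.28, -1.43, -1.64 and -1.68 in EV legs. Its difference was -1.53 ± 0.29 (adjusted p = 0.048 in limma), beside -0.48 in HV and -0.37 in ES.

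Of the next genes of smallest p among those lower in HS, none passed in limma. They were Ccdc146, a coiled-coil protein (-1.51, adjusted p = 0.0509), the pseudokinase Trib2 (-1.0, adjusted p = 0.0673), the peptide hormone apelin, Apln (-1.52, adjusted p = 0.0673), the kinase Hunk (-1.23, adjusted p = 0.0673) and the RNA-binding protein Rbms3 (-0.74, adjusted p = 0.0675). Apln read -2.03, -1.16, -0.32, -1.55 and -1.72 in HS legs, against 0.50, -0.29, 0.23, -0.18 and 0.54 in EV legs, and HS 3 lay just below EV 2. Then followed the prion-like protein gene Prnd (-2.45, adjusted p = 0.0675), the zinc finger factor Sall4 (-1.06, adjusted p = 0.0678), the inositol trisphosphate receptor Itpr1 (-1.25, adjusted p = 0.0678) and the muscarinic receptor Chrm1 (-2.55, adjusted p = 0.0678). Chrm1 read -5.30, -2.38, -6.00, -6.25 and -5.49 in HS legs, against -2.18, -2.96, -3.27, -1.63 and -2.62 in EV legs. HS 2 lay inside the EV range, and without it Chrm1 passed (adjusted p = 0.000832 in limma, against up to 0.302 under the other alternatives). With the slide as a block, limma called all 9 of these genes, at adjusted p between 0.013 (Trib2) and 0.0445 (Rbms3).

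**Figure D4:**
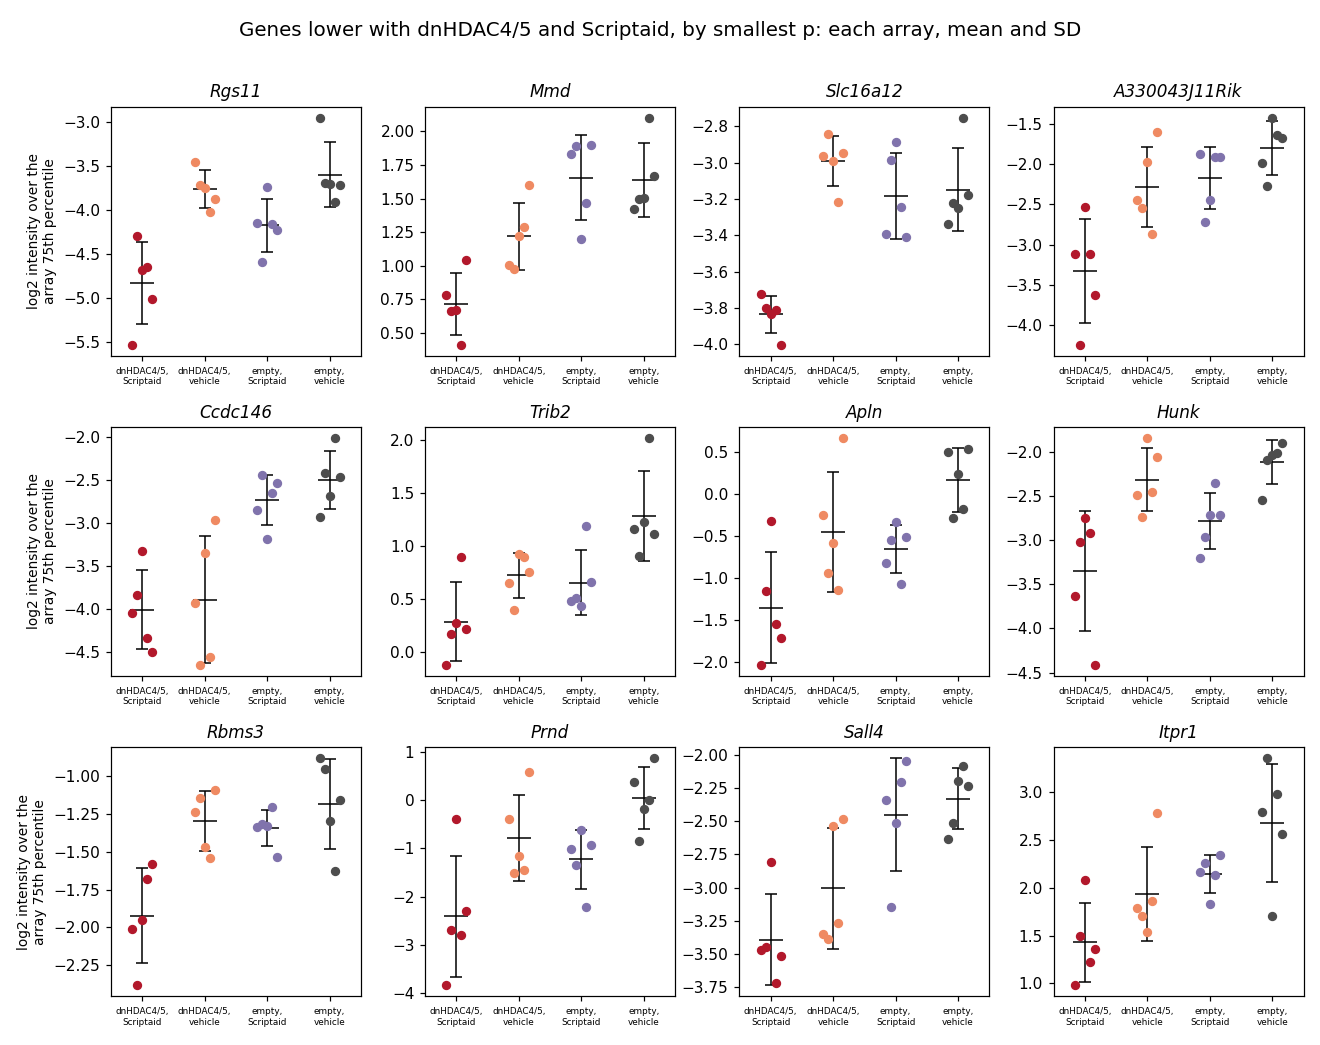
Each array's log2 intensity over the array's 75th percentile (vertical axes) for the 4 genes that fell (Rgs11, Mmd, Slc16a12, A330043J11Rik) and 8 genes of next smallest p, in the groups dnHDAC4/5 with Scriptaid, dnHDAC4/5 with vehicle, empty vector with Scriptaid and empty vector with vehicle (horizontal axes); bars are the mean and SD of 5 arrays. The dnHDAC4/5, Scriptaid arrays lie below the empty vector, vehicle arrays in the panels of the called genes, and the groups overlap for Rbms3, Prnd and Itpr1.

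Members of the lists named below that are not among the genes of smallest p in their list were chosen after their values were seen. For the counts in every list, the shares over all genes were 0.0887% called higher and 0.0273% called lower. At an unadjusted p under 0.05 in limma the shares were 8.07% higher and 4.55% lower. Of 11 glucocorticoid targets tested, 9 were higher and 2 lower in HS, beside 57.1% of all genes above 0, and their median difference was 0.65, beside 0.05 for all genes. Mt1 and Fkbp5 were called, beside a background of 0.0887% called higher, and 8 members were higher at an unadjusted p under 0.05 in limma. Among members that did not pass in limma were the repressor of growth factor receptors Errfi1 (0.70), the muscle transcription factor Klf15 (0.60) and the mTOR inhibitor Ddit4 (0.65), with adjusted p from 0.135 to 0.232. Tsc22d3, the glucocorticoid-induced leucine zipper gene, was at -0.08. The list's median against EV was 0.15 in HV and 0.55 in ES, comparisons that share the EV arrays, and between 0.40 and 0.98 on the 5 slides for HS against EV.

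The atrophy and autophagy list had 13 of 14 members higher in HS, beside 57.1% of all genes, with a median of 0.53 and 1 called rise, Fbxo32. At an unadjusted p under 0.05 in limma, 8 members were higher. The translation repressor Eif4ebp1 read 5.17, 4.55, 4.65, 5.38 and 5.42 in HS legs, against 3.98, 4.21, 4.06, 4.39 and 4.25 in EV legs. Its difference of 0.86 ± 0.20 kept the groups apart and did not pass (adjusted p = 0.0773 in limma, 0.0351 with the slide as a block, and 0.0268 to 0.443 over all alternatives). Foxo1, a transcription factor of the atrophy programme, was at 0.60 (adjusted p = 0.127 in limma), and the muscle ubiquitin ligase Trim63 was at 0.94 with adjusted p = 0.385 in limma. The list median was 0.20 in HV and 0.16 in ES.

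All 13 immediate early genes tested were higher in HS, with a median of 0.61, and 0 were called, against 6 at an unadjusted p under 0.05 in limma. Myc read -0.49, -0.36, -0.96, -0.09 and -0.27 in HS legs, against -0.98, -1.27, -1.58, -1.11 and -1.85 in EV legs, and the lowest HS value lay just above the highest EV value. Its difference was 0.92 ± 0.24 (adjusted p = 0.104 in limma), beside 0.70 in HV. Btg2, an antiproliferative gene, was at 0.89, Jun at 0.46, Fos at 1.32 and Ier2 at 1.66, with adjusted p from 0.154 to 0.426 in limma. The median was 0.18 in HV and 0.19 in ES.

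All 13 heat shock genes tested were also higher in HS, with a median of 0.31 and 0 called, against 3 at an unadjusted p under 0.05 in limma. Of these 13, 3 (Hspa8, Hspb8 and Cryab) had saturated spots on HS or EV arrays, and the 10 without had a median of 0.31. Dnajb1, a co-chaperone of HSP70, read 3.51, 2.85, 3.26, 3.89 and 3.93 in HS legs, against 2.78, 2.49, 2.64, 2.26 and 2.44 in EV legs, with HS 4 and HS 5 highest. Its difference was 0.96 ± 0.19 (adjusted p = 0.0509 in limma), beside 0.10 in HV and 0.16 in ES. Hspa1a, the inducible HSP70, read 3.57, 4.5, 2.47, 6.24 and 5.64 in HS legs, against 1.41, 3.21, 2.51, 0.53 and 0.10 in EV legs. HS 3 lay inside the EV range and the difference, 2.93 ± 0.87, did not pass (adjusted p = 0.153 in limma). Hspa1b, a near-identical gene that the probes may not tell apart, was at 2.95, and a different Hspa1a probe gave 4.15. On the 5 slides the list median ran between -0.04 and 0.76.

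Regulators of metabolism known to respond to exercise had 11 of 14 members higher in HS, a median of 0.34 and 0 called, against 4 at an unadjusted p under 0.05 in limma. Ppargc1a, the coactivator of mitochondrial genes, read 3.29, 3.00, 3.32, 3.85 and 3.12 in HS legs, against 2.49, 2.89, 2.76, 2.97 and 2.79 in EV legs. The groups did not overlap, and the difference of 0.53 ± 0.16 did not pass (adjusted p = 0.145 in limma). Ppara, a nuclear receptor of fat oxidation, read 3.35, 1.97, 2.52, 2.04 and 2.47 in HS legs, against 1.80, 1.80, 1.93, 1.29 and 1.77 in EV legs, a difference of 0.75 ± 0.23 (adjusted p = 0.161 in limma, 0.0315 with the slide as a block, and up to 0.439 over the alternatives). Hexokinase 2, Hk2, was at 1.34, of which EV 5 with a value of 0.71 against 5.07 to 5.61 on the other EV arrays made the larger share: without EV 5 it was 0.39. The list median was -0.05 in HV and 0.25 in ES. Fatty acid uptake and oxidation genes had 9 of 12 higher and a median of 0.27, with 0 called, against 2 at an unadjusted p under 0.05 in limma. That median was 0.15 without EV 2 and 0.59 with another background correction. Of 9 oxidative phosphorylation genes 6, and of 9 glycolysis genes 8, had spots marked saturated on HS or EV arrays, so no difference is given for either list.

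Genes of denervation and the neuromuscular junction had 10 of 15 higher, a median of 0.14 (-0.07 with another background correction) and 1 called rise, Chrna9. At an unadjusted p under 0.05 in limma, 5 members were higher and 1 was lower, and with the slide as a block 3 were called higher. The list median was 0.35 in HV and 0.05 in ES. Chrng, the fetal acetylcholine receptor subunit, was at 1.29 (adjusted p = 0.0678 in limma), but a different probe gave -1.37, so its direction was not settled. Chrna1 was at 0.81, Musk, the receptor kinase of the junction, at 0.73 and Myog, a myogenic factor of denervated muscle, at -0.17, with adjusted p from 0.321 to 0.87 in limma. Chrna9 had the largest difference in this list, and the adult subunit Chrne was at -0.34.

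Igfn1 was the only called member among 16 Z-disc and sarcomere genes, 7 of which were higher in HS (median -0.01, and 0.38 with another background correction). Of these 16, 7 had saturated spots on HS or EV arrays, and the 9 without had a median of -0.02. The filamin Flnc was at 0.11 (adjusted p = 0.892 in limma). The starch-binding protein of glycogen, Stbd1, read 4.25, 3.96 and 4.43 on the 3 HS arrays measured, against 2.09, 2.24, 3.27, 3.01 and 3.03 in EV legs. The groups did not overlap, and its difference of 1.48 ± 0.31 did not pass (adjusted p = 0.0673 in limma), beside 1.23 in HV and 0.04 in ES.

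Targets of p53 had 10 of 14 higher, a median of 0.27 and 0 called, against 4 at an unadjusted p under 0.05 in limma. Bbc3, a cell death gene, was at 0.66 (adjusted p = 0.0628 in limma), the death receptor Fas at 0.67 (adjusted p = 0.0628 in limma) and Gadd45a at 1.43 (adjusted p = 0.108 in limma). With another background correction Bbc3 was at -0.05. Calcium handling genes had 9 of 14 lower, a median of -0.15 and 0 called, against 4 at an unadjusted p under 0.05 in limma. The junctophilins Jph1 and Jph2, which tether the sarcoplasmic reticulum to the surface membrane, were each at -0.57 (adjusted p = 0.175 and 0.179 in limma). That list's median turned to 0.20 with another background correction.

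None of the factors the treatments act on was called. Hdac4 read 0.50, 0.96, 1.22, 1.94 and 1.61 in HS legs, against 0.71, 0.95, 0.81, 1.31 and 0.99 in EV legs. The groups overlapped (difference 0.29 ± 0.22, adjusted p = 0.614 in limma), and the sequences in the vectors are not given, so these probes do not check the vectors. Hdac5 read 3.38, 3.30 and 3.70 on the 3 HS arrays measured, against 3.36, 3.39, 2.67 and 3.35 on 4 EV arrays, a difference of 0.27 ± 0.17 (adjusted p = 0.541 in limma) that turned to -0.27 with outlying spots kept. Hdac9 was lower by 0.67 on the log2 scale and Mef2a higher by 0.52, with adjusted p = 0.153 and 0.228 in limma. A different Hdac9 probe gave -0.14. Of the 8 class IIa deacetylases and MEF2 factors 0 were called, against 1 higher and 1 lower at an unadjusted p under 0.05 in limma. The 13 histone genes had a median of -0.02 (0.34 with another background correction) and 0 called, against 2 higher and 0 lower at an unadjusted p under 0.05 in limma.

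**Figure D5:**
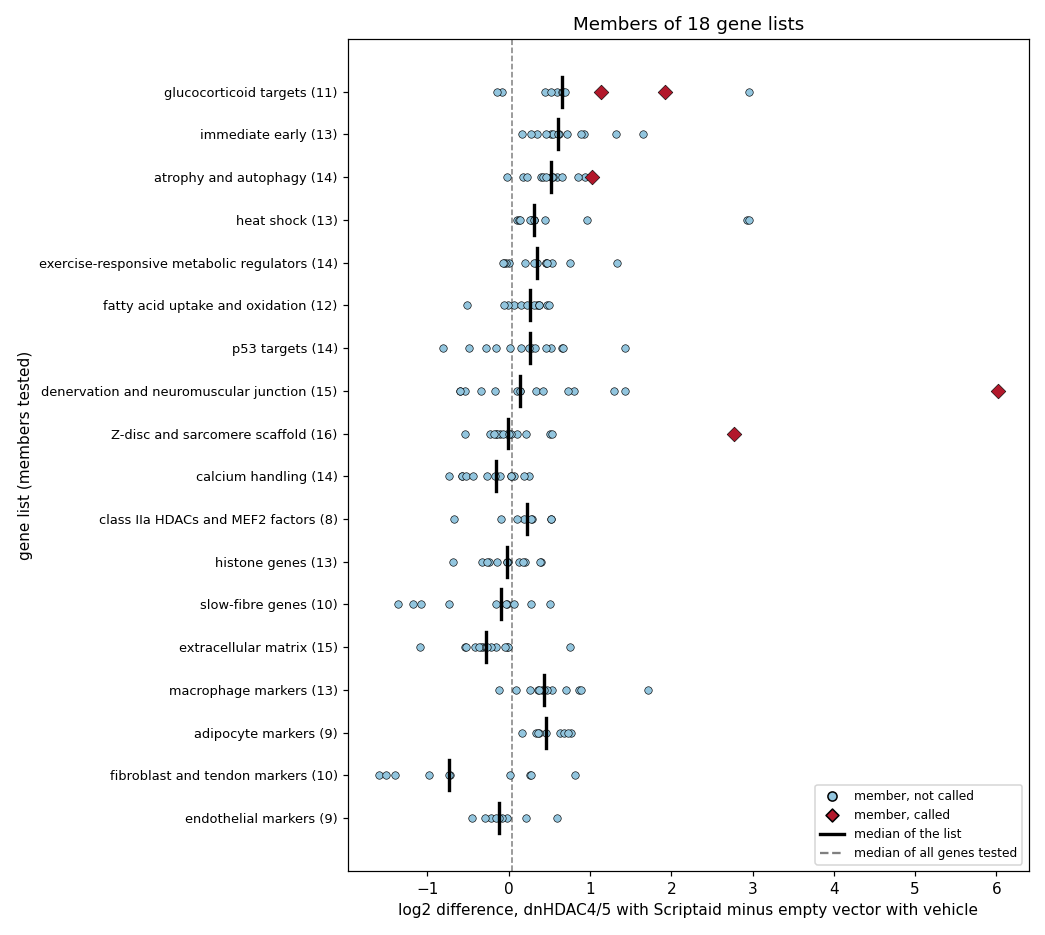
Difference in log2 intensity, dnHDAC4/5 with Scriptaid minus empty vector with vehicle (horizontal axis), of the members of 18 gene lists (vertical axis, with the number tested); red diamonds were called, blue circles were not, black bars are list medians and the dashed line is the median of all genes, 0.05. The medians of glucocorticoid targets (0.65), immediate early genes (0.61) and atrophy genes (0.53) lie to the right of the line, and those of the fibroblast and tendon markers (-0.73) and extracellular matrix (-0.28) to the left.

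All 10 fast-fibre genes had saturated spots, 8 of them on every HS array and 8 on every EV array where they were measured, so no difference is given for them. The 10 slow-fibre genes had a median of -0.09, 0 called and 0 at an unadjusted p under 0.05 in limma. The slow list ran from -1.36 (Myh7) to 0.51 (Myoz2), and its median was 0.16 without HS 4. The summed level of slow-fibre genes was 3.94 to 6.13 on HS arrays and 3.98 to 6.95 on EV arrays on the log2 scale.

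No marker of another cell type was called in the 4 lists that follow, the summed levels of the groups overlapped, and the part of these cells in the results above was not tested. Macrophage markers were higher in 12 of 13 (median 0.44, 0 called, 2 at an unadjusted p under 0.05 in limma), with a summed log2 level of 2.58 to 4.40 on HS arrays and 2.50 to 3.81 on EV arrays. Adipocyte markers were higher in 9 of 9 (median 0.46, 0 called, 2 at an unadjusted p under 0.05 in limma), with summed levels of 6.84 to 8.09 on HS arrays and 6.48 to 7.42 on EV arrays, but their median ran between -3.48 and 4.10 on the 5 slides. Extracellular matrix genes were lower in 14 of 15 (median -0.28, 0 called), and summed levels were 5.90 to 7.95 on HS arrays and 6.35 to 7.74 on EV arrays. At an unadjusted p under 0.05 in limma, 0 members were lower and 1 was higher, Col3a1 (0.75). Fibroblast and tendon markers were lower in 6 of 10 and higher in 4 (median -0.73, 0 called), from Mkx at -1.59 to Scx at 0.82. At an unadjusted p under 0.05 in limma, 2 were higher and 2 lower. Their summed levels were 5.00 to 5.81 on HS arrays and 4.69 to 5.89 on EV arrays. Of these 4 lists every tested member was above background on at least 1 array of each group. A lower level in whole muscle can stand for fewer cells of a type or for less RNA per cell, which these arrays cannot tell apart. These medians moved with single arrays and with the background correction (normexp is the alternative named above). The macrophage median was 0.21 without EV 4, 0.77 without HS 4 and 0.14 with normexp correction. The adipocyte median was 0.20 without HS 2 and 1.09 without HS 1. The extracellular matrix median was -0.53 without HS 2, -0.07 without EV 1 and -0.08 without HS 4. The fibroblast and tendon median was -1.21 without HS 2, -0.33 without EV 2 and -0.16 with normexp correction.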

How the data were processed

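RNA from 20 EDL muscles was labelled with Cy3 and hybridised to 1-colour Agilent arrays. Per the file headers, the deposited intensity of each spot (processed signal) had been background-subtracted and detrended by Agilent Feature Extraction 9.5.1.1, with no scaling between arrays. The authors' deposited value table holds a ratio, the processed intensity over 1 constant per array, and was used as an alternative. From the deposited intensity, log2 values were computed minus each array's 75th percentile. Spots in columns 1 to 77 and rows 11 to 522 that were not controls or outliers were kept. Probes had to be above background on 5 of 20 arrays and measured on 3 arrays of each group, and the brightest probe stood for its gene.

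limma 3.58.1 in R 4.3.3 fitted the means of 4 groups on all 20 arrays (16 residual degrees of freedom), with Benjamini-Hochberg adjustment over 14650 genes. Errors after ± are standard errors of limma's difference. The legs compared come from different animals, but the spread came from all 20 arrays, with both legs of an animal counted as independent. Genes were named by a rule: per direction, up to 12 called genes of largest difference without overlap, filled up to 12 by p and passing over clones, then every called list member, at most 3 members of smallest p per list, Hdac4 and Hdac5. Other list members, AK162362 and A330043J11Rik were named after their values were seen. The comparison, the members and the 39 lists were chosen with earlier results of these data known.

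The replicate number equals the slide. Deviations of same-numbered HS and EV arrays from their group means correlated at -0.17 to 0.28, and 2 of 5 HS arrays correlated best with their own number. So few arrays cannot show whether the slide had an effect. The main fit did not pair arrays by number, and the slide as a block was an alternative. A bound on a fold uses the array's lowest signal among probes well above background. Alternatives were 14 other settings and the omission of each of the 10 arrays. RefSeq promoters on GRCm38.p6 were matched by symbol for 9859 genes. Probe sequences and the authors' annotation build were not used here.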

Additional observations from a re-analysis of the deposited data

Results flagged for a closer look

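Among the named genes, 168 groups of 4 or 5 arrays were examined for a single array far from the rest, which chance alone gives in about 1 of 20 groups, and 13 had one. HS 2 was the distant array 3 times: Chrm1 at -2.38 (next HS value -5.30), Jph1 at 4.84 (next 5.35) and Gbe1, the glycogen branching enzyme, at 4.69 (next 5.36). EV 5 was distant 4 times: Hk2 at 0.713 (next EV value 5.07), the macrophage gene Mpeg1 at -5.16 (next -0.59), Plin4 at 5.83 (next 5.52) and the clock repressor Bhlhe41 at -2.61 (next -2.91). EV 4 was distant 5 times: Slc16a12 at -2.75 (next -3.18), Trib2 at 2.02 (next 1.23), Ppara at 1.29 (next 1.77), the chaperone calreticulin, Calr, at 2.35 (next 2.94) and Hdac5 at 2.67 (next 3.35). EV 1 was distant for Rgs11, at -2.95 (next -3.69). Of these genes Plin4, Rgs11 and Slc16a12 were called. The low EV 5 value enters the macrophage list through Mpeg1 (difference 1.71, and 0.68 without EV 5), and EV 5 also had the highest share of low inner spots, 0.932%.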

How the results depend on the processing

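The count of called genes moved with most choices. It was 376 (208 higher, 168 lower) with the edge zone, 4 (4 and 0) in the narrower zone, 270 (234 and 36) with normexp background correction and 59 (42 and 17) with quantile normalization. It was 13 (7 and 6) with the percentile taken over probes above background on all arrays, 4 (3 and 1) with no filter on dim probes, 21 (17 and 4) with probes above background on at least 10 arrays and 10 (8 and 2) with probes averaged. It was 2 (2 and 0) from the 10 arrays alone, 195 (126 and 69) with the slide as a replicate block, 10 (8 and 2) with the animal as a random block, 13 (10 and 3) with array weights and 47 (36 and 11) from the series value table. Leaving out 1 array gave 0 to 156 called, 0 to 119 higher and 0 to 37 lower. The share called higher was 76.5%, against 55.3% with the edge zone, 53.8% with the other percentile and 86.7% with normexp. Of the 17 calls, the replicate block kept 17, the animal block 10, array weights 9, normexp 9 and the 10 arrays alone 2.

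Some single genes changed sign. With normexp Chrng was at -0.27, Asph at 0.0383, Bbc3 at -0.0464 and AK162362 at -0.0734. With probes averaged Chrng was at -0.0392, H2afz at -0.0333, Col3a1 at -0.52, Lyz2 at -0.71 and Bpgm at 0.10. In the narrower zone Col3a1 was at -0.26 and Bpgm at 0.89, and with outlying spots kept Hdac5 was at -0.27. The cause was not tested. Signal over background limits the dim genes: Chrna9, Rgs11 and Chrm1 were below it on most arrays of at least 1 group.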

Other observations

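Stores of fuel and the immune system were described by further lists. Glycogen genes had 7 of 12 members higher in HS, a median of 0.07 and 0 called, against 2 higher and 1 lower at an unadjusted p under 0.05 in limma. They ran from Gys1, the glycogen synthase of muscle, at -2.02 to Stbd1 at 1.48. The glycogen median was -0.01 with the other percentile. Branched-chain amino acid breakdown had 8 of 11 higher and a median of 0.13 (0.04 with quantile normalization, 0.48 with normexp), with 0 called and 0 at an unadjusted p under 0.05 in limma. Lipid synthesis had a median of 0.01, which turned to -0.08 with the other percentile. Endoplasmic reticulum stress genes had 5 of 8 higher, a median of 0.19 and 0 called, against 3 at an unadjusted p under 0.05 in limma.

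Myogenic and developmental genes had 8 of 12 lower in HS and a median of -0.25, which was -0.11 without HS 1 and turned to 0.04 with normexp, with the satellite cell cadherin Cdh15 at 0.72 (adjusted p = 0.0989 in limma). Interferon genes had a median of 0.07 (-0.12 with normexp), antigen presentation 0.16 (-0.04 without HS 5) and cytokines 0.17 (-0.04 with normexp), with 0 called and 0 at an unadjusted p under 0.05 in limma. Clock genes had a median of 0.06 (-0.03 with the other percentile), and other deacetylases and corepressors one of 0.08 (-0.01 with it). Cell cycle genes had -0.05, which ran from -0.73 without HS 2 to 0.40 without EV 1. Carboxylesterases and phospholipases had 0.27 (-0.05 with normexp). Genes known to respond to deacetylase inhibitors in other cells had 0.13, and oxidative stress genes 0.17, with Mt1 the called member of both. With normexp these were 0.61 and 0.48.

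The smaller marker lists had no settled direction. Endothelial markers had a median of -0.12 (0.18 with normexp), Schwann cell markers -0.10 (0.18 without EV 1), lymphocyte markers -0.16 (0.18 without EV 1) and red blood cell markers 0.29 (-0.30 without HS 2). The 4 neutrophil markers had 0.85, which was 2.08 without EV 1, -0.44 with normexp and -0.61 from the series value table, and ranged from -6.09 to 7.81 on single slides.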
